A study of Mus musculus with 9 samples.

Results

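Dividing monocyte-lineage cells of mouse bone marrow are described here. They were picked cell by cell from their unique molecular identifiers (UMIs, counts of distinct captured mRNA molecules). A cell was a member when Csf1r, Ly86 and Ms4a6c together gave at least 2 UMIs, F13a1, Ccr2 and Fn1 together at least 1, and Mki67 and Top2a together at least 2. It also had to show 0 UMIs of Siglech and Cd79a, under 1% of its UMIs in the granule genes Mpo, Elane and Prtn3, and under 1% in Camp and Ngp. In all, 1950 of 39051 cells kept (4.99%) were members. These 15 genes chose the cells, so their levels are a description and support nothing.

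The marrow came from the femurs of adult female mice of 9 to 10 weeks, with 3 mice and 3 libraries per strain. The inbred parents were NZB (New Zealand Black) and NZW (New Zealand White), and NZBWF1 is their F1 hybrid, a model that develops lupus-like disease as it ages. No treatment and no engineered allele is named for any group. The marrow was flushed, its red cells were lysed, and it was captured without a sort. NZB mice 1 to 3 gave 123, 485 and 190 members, NZW mice 153, 261 and 239, and NZBWF1 mice 76, 246 and 177.

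Monocytes are short-lived and are replaced from the marrow, where granulocyte-monocyte precursors give rise to committed monocyte precursors that still divide. Commitment depends on the transcription factor Irf8 and growth on the receptor Csf1r, and new monocytes leave the marrow through the chemokine receptor Ccr2. Those first released carry much of the surface protein Ly6C, encoded by Ly6c1 and Ly6c2, and some later become Ly6C-low patrolling monocytes.

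Member depth overlapped between the strains, with median UMIs per cell of 3386 to 4912 in NZB, 3611 to 4564 in NZW and 3440.5 to 5279 in NZBWF1 mice and summed UMIs of 410975 to 1748298 per mouse. Members were compared with 2561 non-dividing monocyte-lineage cells, which met the same marker rule with 0 UMIs of Mki67 and Top2a, and with 1015 dividing granulocyte-monocyte precursors, which had at least 2 such UMIs and at least 1% of UMIs in the granule genes. The non-dividing cells were shallower, with medians of 2035 to 2473, 1510.0 to 1910.5 and 1620.0 to 2217 UMIs in NZB, NZW and NZBWF1 mice. The precursors were deeper than members in every mouse (medians of 5085 to 9124 UMIs). Members of NZBWF1 mouse 3 stood apart, as B-cell markers made up 0.824% of their UMIs against 0.0250 to 0.0592% in the other mice. At least 1% immunoglobulin UMIs were found in 1 of its 177 members and in 1 of 239 in NZW mouse 3. The part of single cells in this sum was not tested. Cell barcodes were shared between libraries for 342 of the 39051 cells kept. Among members alone, 0 shared a barcode with another member, and sharing with the other cells kept was not counted.

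The name of the cells was checked against markers that the rule did not use. Beyond the rule, 23 further monocyte-lineage genes made up 2.06 to 2.46% of member UMIs, 3.47 to 4.46% in non-dividing cells and 0.525 to 0.772% in precursors. Members thus lay between the other sets, and the ranges did not overlap. The 15 conventional dendritic cell markers made up 0.0108 to 0.0651% of member UMIs and 0.111 to 0.664% in non-dividing cells, and 0 of them were at 0 in members. For 4 of these markers, H2-Aa, H2-Ab1, H2-Eb1 and Cd74, which are also MHC class II genes, the sums were 0.00121 to 0.0514% and 0.102 to 0.631%, and for the other 11 they were 0.00538 to 0.0137% and 0.00879 to 0.0370%. The rule fixed the presence of its own genes, which is no check of the name. A UMI of F13a1, which encodes the A chain of coagulation factor XIII, was present in 93.6% of members, one of Csf1r in 39.8%, one of Ly86 in 49.3% and one of Mki67, a protein of dividing nuclei, in 95.1%. In 4796 B-lineage cells without the 3 monocyte genes of the rule, which should lack F13a1, it was present in 1.42%, at a median of 1951.5 UMIs against 3742 in members.

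The rule cuts through a gradient. With the other limits met, 367 cells had a single UMI of Mki67 and Top2a and stood just outside, and 236 had 2 and stood just inside. Genes of G2 and mitosis made up 0.0623% of UMIs in cells with 0 such UMIs, 0.281% with 1, 0.383% with 2, 0.508% with 3 and 0.929% in the 1527 cells with 4 or more.

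Genes of cell division stood higher in members than in non-dividing cells. Since the rule used 2 division genes, these ratios are a description with no test. Of 3591 genes at 50 CPM (UMIs per 1000000) or more in the higher set, 812 were higher in members in all 9 mice and 654 lower, with a median log2 ratio of 0.03 over all of them. All 35 genes of G2 and mitosis were higher in 9 of 9 mice (median log2 ratio 4.32), as were 22 of 24 measured S phase genes (median 1.97). The spindle gene Nusap1 led with a log2 ratio of 6.84, followed by Plk1, the kinase that drives entry into mitosis (6.54), and Prc1, which bundles microtubules of the spindle midzone (6.27). Cdk1, the kinase at the centre of mitotic entry, ran from 251 to 331 CPM in members (median 305) and from 0 to 15.4 CPM in non-dividing cells (median 8.43).

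Promoters of such division genes are shown because 2 short motifs recur in them. CCAAT is bound by the factor NF-Y, and TTTGAA is the core of the cell cycle homology region, through which the DREAM and MuvB complexes act on mitotic genes. In RefSeq promoters (build GRCm38.p6, 250 bases before to 50 after the start, either strand), 29 of the 35 G2 and mitosis genes matched 30 promoters. CCAAT was present in 73.3% of them against 37.4% of all 32851 promoters, TTTGAA in 70% against 17.9%, and both in 60% against 6.95%. For S phase genes (25 of 30 matched, 30 promoters), the E2F motif GGCGGGAA was present in 13.3% against 2.19%. Of 6 genes with both motifs wholly within the 150 bases before the start, 4 are printed 5′ to 3′ on the strand of the gene, with both motifs and their reverse complements in capitals.
Prc1, chr7:80294326-80294475, plus strand: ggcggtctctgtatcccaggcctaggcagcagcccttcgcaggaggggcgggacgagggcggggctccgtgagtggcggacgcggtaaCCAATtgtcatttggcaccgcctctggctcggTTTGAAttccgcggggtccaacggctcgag
Kif11, chr19:37376232-37376381, plus strand: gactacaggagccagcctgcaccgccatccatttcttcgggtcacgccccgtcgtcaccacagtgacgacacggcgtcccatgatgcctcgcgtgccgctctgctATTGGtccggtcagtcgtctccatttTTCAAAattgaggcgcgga
Cdk1, chr10:69352913-69353062, minus strand: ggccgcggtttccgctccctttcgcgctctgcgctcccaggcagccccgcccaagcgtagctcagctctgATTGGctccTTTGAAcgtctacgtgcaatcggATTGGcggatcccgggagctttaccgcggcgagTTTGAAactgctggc
Ckap2, chr8:22185820-22185969, minus strand: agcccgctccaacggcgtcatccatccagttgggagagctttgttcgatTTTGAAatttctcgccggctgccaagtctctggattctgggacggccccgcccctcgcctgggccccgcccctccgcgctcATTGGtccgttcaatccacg
Prc1 stood at 204 to 324 CPM in members and 0 to 11.7 CPM in non-dividing cells. Kif11, the motor that separates the spindle poles, stood at 180.1 to 245 CPM and 0 to 6.14 CPM, and Ckap2, a microtubule-associated protein, at 59.2 to 92.4 CPM and 0 to 6.14 CPM. The ranges of the 2 sets did not overlap for any of these genes.

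MHC class II genes and interferon-stimulated genes stood lower in members than in non-dividing cells. Products of the MHC class II list show peptides to helper T cells or serve in that path. In 9 mice 6 of its 7 measured genes were lower (median log2 ratio -3.05), with H2-Eb1 at -4.04 and the invariant chain gene Cd74 at -3.84. The MHC class II genes H2-Aa, H2-Ab1, H2-Eb1 and Cd74 carried most of the dendritic cell marker sum of non-dividing cells, so that sum is not a separate measurement. The part of dendritic cells in this difference was not tested. Among interferon-stimulated genes, 19 of 32 were lower and 0 higher in 9 mice (median -1.27), with Slfn5 at -3.98 and Oasl2 at -3.93. The chemokine gene Cxcl10, which is not one of the 19, stood at -3.95 (-5.27 to -0.185 over the 9 mice). Of 23 measured monocyte-lineage genes, 16 were lower and 1, the transcription factor gene Klf4 (0.73), was higher in 9 mice. Cxcr4, the receptor that holds cells in the marrow, was the 1 of 13 chemokine receptor and adhesion genes higher in 9 mice, at 157 to 309 CPM against 53.1 to 109 CPM.

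**Figure D1:**
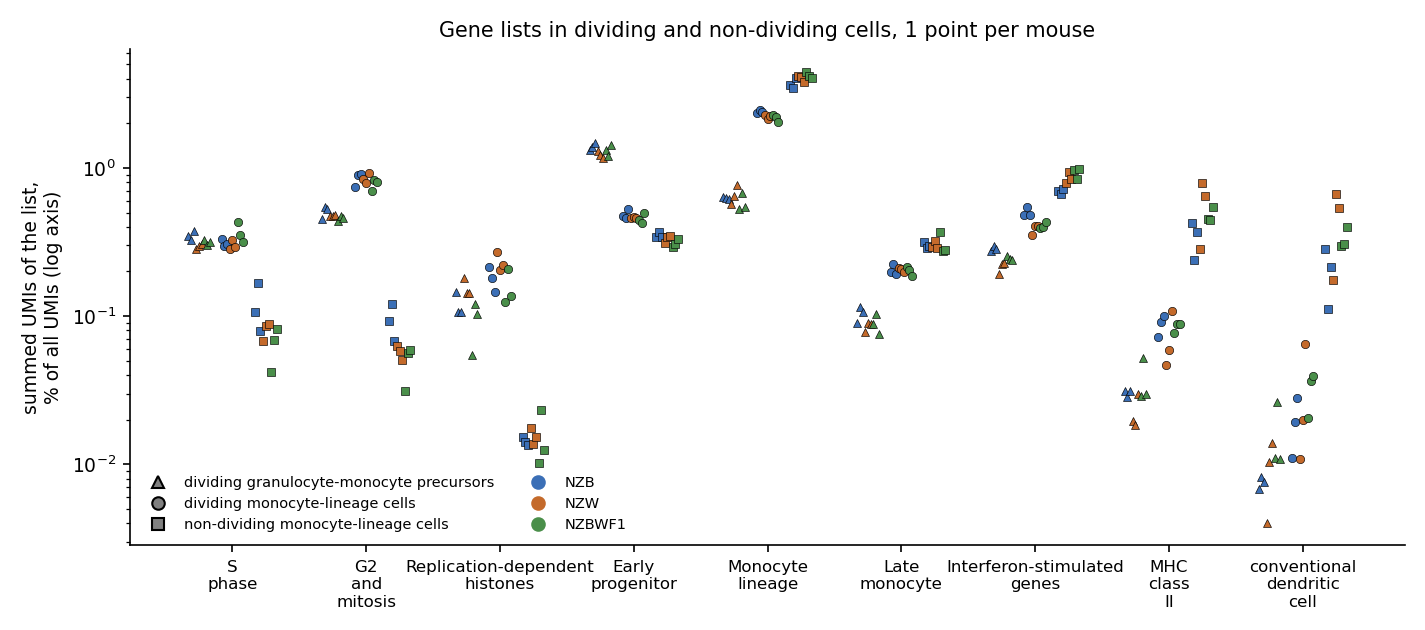
Summed UMIs of gene lists as a percentage of all UMIs, 1 point per mouse, in dividing granulocyte-monocyte precursors, dividing monocyte-lineage cells and non-dividing monocyte-lineage cells. Monocyte-lineage genes stand at 0.525 to 0.772%, 2.06 to 2.46% and 3.47 to 4.46% in that order.

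Against dividing granulocyte-monocyte precursors, monocyte genes stood higher and progenitor genes lower in members. The granule genes of the rule separate the 2 sets, and members but not precursors had to show its monocyte genes. These ratios are therefore a description with no test. Of 3441 genes at 50 CPM or more, 1377 were higher in members in all 9 mice and 668 lower (median log2 ratio 0.23). Monocyte-lineage genes were higher for 20 of 21 (median 2.07). The scavenger receptor gene Msr1 led at 5.09. Of the MHC class II list, 3 of 4 measured genes were higher in members and 0 lower (median 2.57). The 3 were H2-DMa, Cd74 and Ctss, so H2-Aa, H2-Ab1 and H2-Eb1 were not among them. Ctss is also counted among the monocyte-lineage genes. Interferon-stimulated genes were higher for 13 of 16 and lower for 1 (median 1.01). Early progenitor genes were lower for 11 of 13 (median -1.49), with Ms4a3, a marker of the granulocyte-monocyte precursor, at -4.27 and the protease gene Prss57 at -4.83. Both sets had to hold at least 2 UMIs of Mki67 and Top2a, and since precursors were deeper this limit asked members for a larger share of such UMIs. Under this limit, 31 of 35 genes of G2 and mitosis were higher in members in 9 mice (median 0.87). Of 26 S phase genes, 4 were higher and 1 lower (median 0.06). The part of the limit in these ratios was not tested.

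How many monocyte-lineage cells were dividing was compared across strains. NZB mice had the higher share when all cells kept were counted. It was 48.0% (42.0 to 54.2), 68.1% (64.6 to 71.4) and 52.1% (46.9 to 57.1) in NZB mice, with 95% Wilson intervals that cover counting error only. NZW mice had 33.0% (28.9 to 37.5), 35.3% (31.9 to 38.8) and 34.2% (30.8 to 37.8), and NZBWF1 mice 35.8% (29.7 to 42.5), 28.5% (25.6 to 31.6) and 31.2% (27.5 to 35.1). All 3 NZB mice lay above the other 6, and the means were 56.1 ± 10.6%, 34.2 ± 1.11% and 31.8 ± 3.72% (SD, n = 3). An exact permutation test of the variance between over that within strains gave p = 0.0143 (0.0429 adjusted over 4 share tests, where the smallest possible raw p was 0.00357). For a pair of strains the smallest possible exact permutation p was 0.1, which NZB against NZW and NZBWF1 against NZB gave, and NZBWF1 against NZW gave 0.4.

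The depth of the non-dividing cells moved with this share. Of them, 20 to 44.7% had under 2000 UMIs in NZB mice, 55.1 to 82.3% in NZW mice and 35.5 to 79.3% in NZBWF1 mice, against 0.813 to 9.60% of members. With only cells of at least 2000 UMIs and 1000 genes, the dividing share was 52.6, 78.1 and 60.6% in NZB, 49.2, 70.8 and 55.3% in NZW and 45.2, 61.3 and 51.8% in NZBWF1 mice. The strains then overlapped, with an exact permutation p of 0.518, which does not show them to be alike. Among the mice of each replicate number NZB was then highest and NZBWF1 lowest, and no test within numbers was made. With every cell thinned to 1000 UMIs, the NZB mice, at 18.5, 37.1 and 29.8%, again stood above the NZW mice at 14.4, 14.4 and 16.3% and the NZBWF1 mice at 6.87, 11.9 and 11.1%. The exact permutation p was then 0.00357, the smallest possible.

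**Figure D2:**
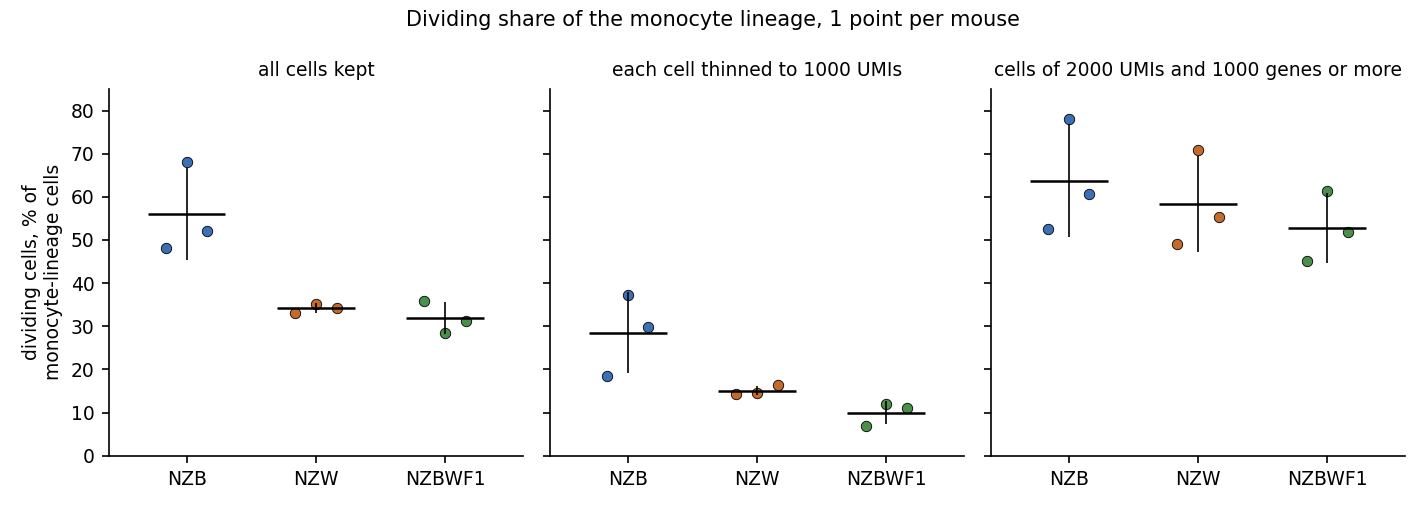
Dividing cells as a percentage of monocyte-lineage cells, 1 point per mouse with the strain mean and SD, in all cells kept, with each cell thinned to 1000 UMIs, and in cells of at least 2000 UMIs and 1000 genes. The NZB means of 56.1% and 28.5% stand above the other strains in the first 2 settings, and the strains overlap in the last (means 63.8, 58.4 and 52.8%).

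As a share of all cells kept, members made up 5.01, 9.49 and 5.79% in NZB, 3.55, 5.07 and 4.83% in NZW and 2.96, 4.43 and 3.11% in NZBWF1 mice. NZB mouse 2 stood far above the other mice of its strain, and NZB mouse 1 lay below NZW mouse 2. In each strain mouse 2 was highest and mouse 1 lowest. The means were 6.76 ± 2.40%, 4.48 ± 0.818% and 3.50 ± 0.808% (SD, n = 3), with an exact permutation p of 0.0214 for the 3 strains (0.0429 adjusted over 4). The exact permutation p was 0.154 with cells thinned to 1000 UMIs, 0.2 in cells of 2000 to 6000 UMIs and 0.0536 without cells of globin or immunoglobulin UMIs. Without NZB mouse 2 the exact permutation p was 0.111, and without any 1 of the NZW or NZBWF1 mice it was 0.0643 to 0.104. NZBWF1 differed from the pooled mean of the parental mice by -2.12 percentage points in this share (exact permutation p = 0.119). In the dividing share it differed from that mean by -13.3 points (exact permutation p = 0.179). With edgeR on cell numbers, against the parents' mean on the log scale, both passed the threshold of 0.05, at log2 differences of -0.65 and -0.497. Parent by parent, NZBWF1 differed by -3.26 points from NZB and -0.982 from NZW in the share of kept cells. In the dividing share it differed by -24.2 points from NZB and -2.33 from NZW.

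Among members, those with more UMIs of G2 and mitosis genes than of S phase genes were 75.5 ± 8.32% in NZB, 71.4 ± 4.78% in NZW and 64.9 ± 6.65% in NZBWF1 mice (SD, n = 3). S phase genes made up 0.296 to 0.332% of member UMIs in NZB, 0.284 to 0.329% in NZW and 0.319 to 0.434% in NZBWF1 mice, so these ranges overlapped.

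The parents were then compared gene by gene within members. UMIs were summed per mouse and tested with edgeR's quasi-likelihood test with Benjamini-Hochberg adjustment over 7754 genes, and genes under 0.05 are called. NZB and NZW members differed in 936 genes, 12.1% of those tested, with 522 higher in NZB (6.73%) and 414 higher in NZW (5.34%). The count was 505 without NZB mouse 2, 545 without NZW mouse 3 and 442 with DESeq2. Of 30 S phase genes 2 were higher in NZB and 0 in NZW, and of 35 genes of G2 and mitosis 1 was higher and 1 lower. Their median log2 differences were 0.01 and 0.00, against -0.01 for all genes. Counts of called genes in the lists below are to be read against the shares of 6.73 and 5.34%, and many rest on few genes.

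Pcna, the sliding clamp of DNA polymerase, was among the few division genes called. It stood at 103, 86.4 and 89.6 CPM in NZB, 30.8, 42.9 and 31.1 CPM in NZW and 58.4, 72.1 and 70.7 CPM in NZBWF1 members. The 3 strains did not overlap, and NZB exceeded NZW by 1.38 ± 0.180 on the log2 scale (SE, edgeR adjusted p = 2.4e-07). Cdca3, which promotes entry into mitosis, was higher in NZB by 0.51 ± 0.115 (edgeR adjusted p = 0.00159). Of 53 replication-dependent histone genes, which package new DNA, 12 were tested, with 1 higher in NZB and 5 in NZW. Hist1h4i stood at 1.56, 1.72 and 1.19 CPM in NZB and 73.7, 84.7 and 69.3 CPM in NZW, and Hist2h2ac, which went the other way, at 17.1, 17.7 and 14.3 CPM in NZB and 4.02, 2.04 and 3.01 CPM in NZW. Histone genes share sequence (18.2% of the 31-base words of Hist1h4i are found in Hist1h4d), so reads may be split between copies and these values are uncertain.

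Genes that define the monocyte went in both directions. Ly6c2 stood at 257, 239 and 272 CPM in NZB, 2226, 2291 and 2184 CPM in NZW and 1161, 1177 and 1096 CPM in NZBWF1 members. The strains stood apart, with a log2 difference of -3.13 ± 0.104 between NZB and NZW (edgeR adjusted p = 1.1e-26) and of -1.0 ± 0.0947 between NZBWF1 and NZW (edgeR adjusted p = 3.8e-10). Its neighbour Ly6c1 (chr15:75044018-75048920, with Ly6c2 at chr15:75108161-75112066) ran the other way, at 257, 159.6 and 168 CPM in NZB, 1.34, 0 and 0 CPM in NZW and 63.3, 56.6 and 78.5 CPM in NZBWF1. Since 21.4% of the 31-base words of Ly6c2 are found in Ly6c1, reads can be misassigned or lost. Whether reads of a strain were lost from both genes was not tested. Their sum was 514, 399 and 441 CPM in NZB, 2227, 2291 and 2184 CPM in NZW and 1224, 1234 and 1174 CPM in NZBWF1, so the strains stood apart in the sum too.

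Irf8, the factor that commits precursors to the monocyte path, was lower in NZB members. Its levels were 487, 390.1 and 524 CPM in NZB, 821, 864 and 1099.6 CPM in NZW and 706, 722 and 736 CPM in NZBWF1. The 3 strains did not overlap, and the log2 difference was -1.004 ± 0.114 between NZB and NZW (edgeR adjusted p = 1.1e-08) and 0.61 ± 0.115 between NZBWF1 and NZB (edgeR adjusted p = 0.00061). Of 17 myeloid transcription factors tested, 6 were higher in NZB and 4 in NZW. Zeb2, a repressor in monocyte and dendritic cell development, was lower in NZB (-0.698 ± 0.117).

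Of 23 monocyte-lineage genes tested outside the rule, 9 were higher in NZB and 3 in NZW. Ctsc, the protease that activates granule enzymes, stood at 598, 877 and 684 CPM in NZB and 271, 222 and 276 CPM in NZW (log2 difference 1.502 ± 0.130, edgeR adjusted p = 1.8e-10). Fcgr1, the high-affinity IgG receptor, stood at 37.4, 76.1 and 66.9 CPM in NZB and 6.70, 8.17 and 8.03 CPM in NZW, a log2 difference of 3.03 ± 0.292. Vcan, a matrix proteoglycan gene of classical monocytes, stood at 82.5, 194 and 197 CPM in NZB and 17.4, 6.12 and 2.01 CPM in NZW. In none of these 3 genes did the parents overlap. Lysozyme (Lyz2) and cathepsin S (Ctss) were higher in NZB by 0.49 ± 0.0851 and 0.77 ± 0.117 on the log2 scale. Of 13 cathepsins and inhibitors tested 5 were higher in NZB and 2 in NZW. Of 17 Toll-like receptors and adaptors outside the rule 4 were higher in NZB and 0 in NZW. Over all genes tested the shares were 6.73 and 5.34%.

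Neutrophil markers moved with these differences. Summed over 13 list genes outside the rule, of which 1 was at 0 in all members, they made up 0.568 to 0.822% of member UMIs in NZB, 0.184 to 0.443% in NZW and 0.180 to 0.433% in NZBWF1 mice. Of 12 tested outside the rule, 4 were higher in NZB and 0 in NZW, among them Mmp8, the neutrophil collagenase, at 202, 329 and 277 CPM in NZB and 146, 110.2 and 87.4 CPM in NZW. Their part in the higher Ctsc, Fcgr1, C5ar1 (log2 difference 2.66 ± 0.356) and Itgam (1.103 ± 0.202) of NZB was not tested. Some precursor genes differed by strain as well, in both directions. Members with a UMI of the granule genes Mpo, Elane and Prtn3, which the rule limited, were 84.2 to 87.8% in NZB, 73.6 to 74.9% in NZW and 69.5 to 73.7% in NZBWF1 mice, and 58.4 to 71.8%, 53.1 to 57.5% and 49.2 to 56.6% with each cell thinned to 1000 UMIs. Of 15 early progenitor genes tested outside the rule, 1 was higher in NZB and 5 in NZW, against 6.73 and 5.34% of all genes. The part of precursors in the strain differences was not tested.

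Of 10 markers of late, patrolling monocytes, 2 were higher in NZB and 4 in NZW, against 6.73 and 5.34% of all genes tested. Spn, the sialophorin CD43, stood at 128, 97.8 and 94.3 CPM in NZB and 205, 209 and 219 CPM in NZW, a log2 difference of -1.01 ± 0.131 (edgeR adjusted p = 2e-07). Ear2, an eosinophil-associated ribonuclease, stood at 181, 128 and 129 CPM in NZB and 315, 337 and 260.1 CPM in NZW. The marrow-retention receptor Cxcr4 stood at 171, 157 and 179 CPM in NZB, 265, 263 and 245 CPM in NZW and 309, 268 and 203 CPM in NZBWF1. NZB had the lowest mean of the strains in each of these 3 genes, of which Cxcr4 is not one of the late markers. Values of the 2 late markers higher in NZB are not given here. Of 10 late markers measured against non-dividing cells, Spn was the 1 higher in members in 9 mice, and 7 were lower.

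Growth factor receptors changed in either direction. Of 18 outside the rule 4 were higher in NZB and 2 in NZW, against 6.73 and 5.34% of all genes tested. Csf2rb, the chain shared by the receptors for GM-CSF, IL-3 and IL-5, stood at 117, 222 and 215 CPM in NZB and 75.0, 82.7 and 99.4 CPM in NZW (log2 difference 1.14 ± 0.198, edgeR adjusted p = 0.00078). Its neighbour Csf2rb2 was higher as well (1.52 ± 0.330), and 28.6% of its 31-base words are found in Csf2rb, so their reads can be confused. Il3ra, the alpha chain of the IL-3 receptor, stood at 21.8, 26.3 and 25.1 CPM in NZB and 45.5, 50.02 and 60.3 CPM in NZW, and Il6ra was lower in NZB by a log2 difference of -0.55 ± 0.133. Csf1r itself, used by the rule, stood at 80.0 to 159 CPM over the 9 mice.

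**Figure D3:**
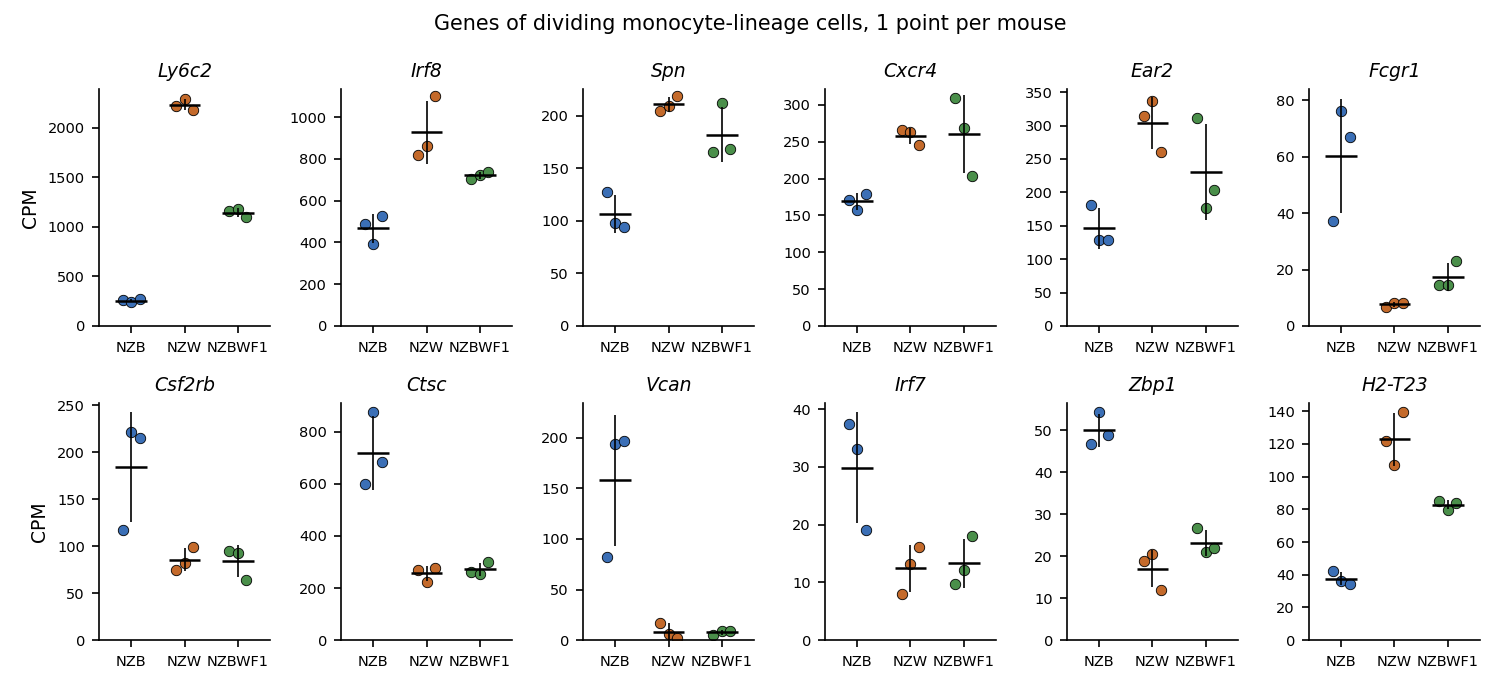
Levels of 12 genes in dividing monocyte-lineage cells in CPM, 1 point per mouse with the strain mean and SD. Irf8 stands at 390.1 to 524 CPM in NZB and 821 to 1099.6 CPM in NZW, and Ctsc in NZBWF1, at 253 to 299.7 CPM, is near NZW at 222 to 276 CPM.

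Interferon-stimulated genes made up 0.482 to 0.542% of member UMIs in NZB, 0.353 to 0.408% in NZW and 0.394 to 0.433% in NZBWF1 mice. Of 42 tested, 10 were higher in NZB and 2 in NZW, with a median log2 difference of 0.29. Zbp1, a sensor of Z-form nucleic acids, stood at 46.7, 54.3 and 49.0 CPM in NZB and 18.8, 20.4 and 12.1 CPM in NZW (log2 difference 1.58 ± 0.234, edgeR adjusted p = 2.9e-06). Apobec3, a deaminase that restricts retroviruses, stood at 178, 255 and 242 CPM in NZB, 38.8, 40.8 and 54.2 CPM in NZW and 144, 133 and 141 CPM in NZBWF1. Irf7, the factor that amplifies type I interferon, stood at 37.4, 33.2 and 19.1 CPM in NZB and 8.04, 13.3 and 16.1 CPM in NZW, and its call (edgeR adjusted p = 0.00455) was lost without NZB mouse 2, with cells of at most 5% mitochondrial UMIs and with DESeq2.

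Interferon-inducible Ifi200 genes, which lie side by side on chromosome 1, differed in opposite directions. Ifi202b (chr1:173962569-173982844) stood at 394, 415 and 398 CPM in NZB, at 0 in all 3 NZW mice and at 151, 164 and 163 CPM in NZBWF1. With 1312 UMIs in NZB and 0 of 2722111 UMIs in NZW, and a floor of 3 UMIs over the group, NZB was at least 369-fold higher. Mndal (chr1:173857215-173880382) stood at 10.9, 12.6 and 9.55 CPM in NZB and 142, 139.8 and 183 CPM in NZW, and Ifi203 (chr1:173920400-173942866) at 52.9, 47.5 and 25.1 CPM in NZB and 123, 196 and 228 CPM in NZW. Of the Ifitm genes, which restrict the entry of viruses, Ifitm3 was higher in NZB (0.703 ± 0.0970) and Ifitm2 lower (-0.98 ± 0.105). These families hold similar genes, and whether reads of a strain fail to map to the reference genome was not tested.

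Histocompatibility genes also went both ways. H2-T23 (chr17:36029977-36032701), whose product shows peptides to receptors of NK cells, stood at 42.0, 36.0 and 34.6 CPM in NZB, 122, 107 and 139.6 CPM in NZW and 85.2, 79.9 and 83.6 CPM in NZBWF1, a log2 difference of -1.73 ± 0.167 between NZB and NZW (edgeR adjusted p = 1.7e-10). H2-T22 was lower in NZB (-2.35 ± 0.255) and H2-D1 higher (0.56 ± 0.106), and of 13 MHC class I genes 4 were higher in NZB and 3 in NZW. H2-DMb1, which helps to load peptides on MHC class II, stood at 56.1, 52.6 and 60.9 CPM in NZB, 6.70, 11.2 and 26.1 CPM in NZW and 34.1, 57.7 and 47.6 CPM in NZBWF1.

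Ftl1, the ferritin light chain that stores iron (chr7:45457944-45459886), stood at 4826, 4298 and 4544 CPM in NZB, 91.1, 94.9 and 121 CPM in NZW and 2027, 1675 and 1834 CPM in NZBWF1. Its near-copy Ftl1-ps1 (chr13:74406397-74407325) stood at 23.4, 17.2 and 21.5 CPM in NZB, 2789.9, 2596 and 2529 CPM in NZW and 1535, 1422 and 1622 CPM in NZBWF1. The pair share 54.4% of the 31-base words of Ftl1, so reads can be misassigned or lost. Neither value alone measures the light chain, and whether reads of a strain were lost from both genes was not tested. Their sum was 4849, 4315 and 4565 CPM in NZB, 2881, 2691 and 2649 CPM in NZW and 3562, 3097 and 3456 CPM in NZBWF1, and the strains did not overlap. The heavy chain gene Fth1 stood at 2372, 2724 and 2679 CPM in NZB and 1603, 1730.2 and 1484 CPM in NZW (log2 difference 0.69 ± 0.0946, edgeR adjusted p = 6.8e-07), and Hmox1, which frees iron from haem, was higher in NZB by 1.54 ± 0.209.

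The place of the hybrid was examined next. Among the 936 genes called between the parents, the NZBWF1 mean lay between the parent means for 809 (86.4%) and nearer to NZW for 677 (72.3%). Against the mean of the parents on the log scale, 24 genes (0.31%) were called, 15 higher (0.193%) and 9 lower (0.116%) in NZBWF1. NZBWF1 differed from NZB in 388 genes (5.0%), 148 higher (1.91%) and 240 lower (3.1%), and from NZW in 50 (0.645%), 29 higher (0.374%) and 21 lower (0.271%), with the same NZBWF1 mice in each comparison. Against the parent mean the count was 54 without NZB mouse 1, 13 without NZBWF1 mouse 2 and 14 without NZBWF1 mouse 3. Against NZB it was 184 with DESeq2, 153 without NZB mouse 2, 184 without NZBWF1 mouse 2 and 255 without NZBWF1 mouse 3, and against NZW 31 without NZW mouse 3 and 29 without NZBWF1 mouse 2.

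**Figure D4:**
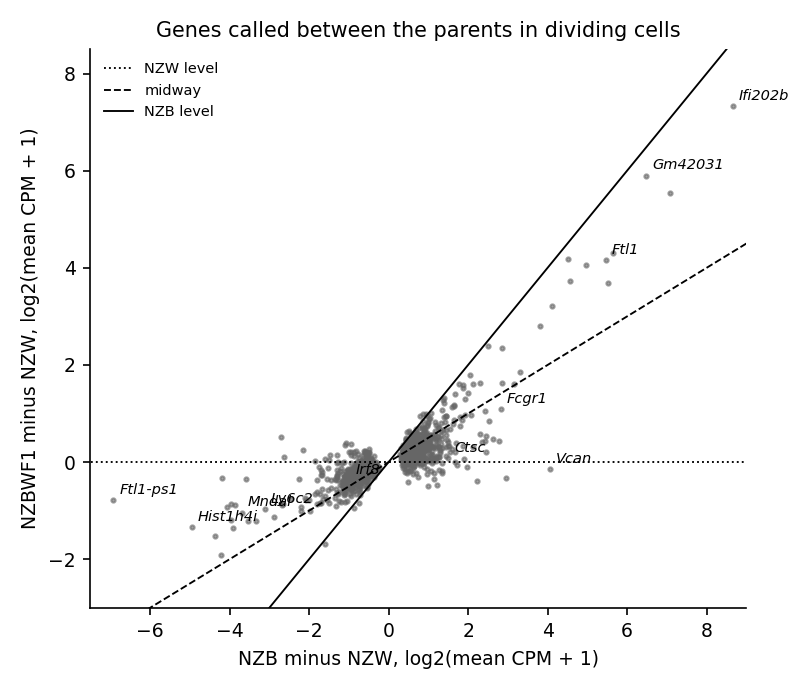
For the 936 genes called between the parents in dividing cells, the difference of NZBWF1 from NZW against that of NZB from NZW, on the log2(mean CPM + 1) scale, with lines at the NZW level, the midpoint and the NZB level. Of these genes 677 lie nearer to the NZW level.

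The contrast takes the parents' mean on the log scale, so a gene at the plain average of unequal parents lies above it. Of the 15 higher genes, 13 had a mean between those of the parents. In 10 of the 24 genes the NZBWF1 mean lay outside both parents. F10, coagulation factor X, stood at 282, 413 and 431 CPM in NZB, 222, 209 and 244 CPM in NZW and 207, 181 and 156 CPM in NZBWF1 (log2 difference from the parent mean -0.74 ± 0.121, edgeR adjusted p = 0.00043). Slfn2, a schlafen gene that keeps T cells quiescent, stood at 321, 416 and 329.6 CPM in NZB, 253, 247 and 253 CPM in NZW and 156, 226 and 185 CPM in NZBWF1 (-0.67 ± 0.115, edgeR adjusted p = 0.00067). For both, all 3 NZBWF1 mice lay below all 6 parents.

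Ctsc, at 263, 253 and 299.7 CPM in NZBWF1, lay below the parent mean by a log2 difference of -0.69 ± 0.120 (edgeR adjusted p = 0.00139), a call lost without NZBWF1 mouse 2.

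Whether a strain difference itself differed between dividing and non-dividing cells was tested by an interaction term with the mouse in the fit. Between members and non-dividing cells, 164 of 8136 genes (2.02%) differed in their NZB against NZW difference, 95 with a more positive (1.17%) and 69 with a more negative value in members (0.848%). Interferon-stimulated genes gave 17 of the 95 and 0 of the 69, out of 60 tested, with a median of 0.88 against 0.00 for all genes. The 60 and their median include genes too low to be tested in members alone. Those genes entered through the non-dividing cells, where they stood higher. Genes of G2 and mitosis leaned the other way, with 0 of 35 in the 95, 4 in the 69 and a median of -0.84, as did S phase genes with 0 of 30 called and a median of -0.52. G2 and mitosis genes made up 0.0675 to 0.120% of UMIs in non-dividing NZB cells, above 0.0506 to 0.0626% in NZW and 0.0314 to 0.0590% in NZBWF1, so division RNA in the cells compared against moved with strain, and its part in these differences was not tested. Irf7 stood at 61.4, 41.0 and 58.3 CPM in NZB, 119, 165 and 123 CPM in NZW and 168, 119.8 and 271 CPM in NZBWF1 non-dividing cells, so NZB was there the lowest strain, while in members it had the highest mean. Its interaction was 2.6 ± 0.351 on the log2 scale (edgeR adjusted p = 1.9e-07). Ifit1, an RNA-binding effector of the interferon response, stood at 1.56, 2.29 and 4.78 CPM in NZB and 0, 1.02 and 1.004 CPM in NZW members, and at 10.8, 2.93 and 6.14 CPM in NZB and 45.0, 40.0 and 62.6 CPM in NZW non-dividing cells.

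Most of these calls were lost in deeper cells, of which there were fewer. With only cells of at least 2000 UMIs and 1000 genes, non-dividing cells numbered 105 to 565 per mouse before and 71 to 152 after, and the parts of depth and of cell number in the loss were not told apart. In this setting 1 gene was called by edgeR, Ly6c2. Of the 164 genes, 158 could still be tested, 156 had the same sign and 82 an unadjusted edgeR p under 0.05. Over all 6564 genes tested, 354 had an unadjusted edgeR p under 0.05. The 158 were picked by their call on data that include these cells, so a shared sign is no separate support. Their median size of the difference went from 0.82 to 0.49. Over the 52 interferon-stimulated genes tested in both settings, the median went from 0.78 to 0.48, with 48 and then 46 above 0. Some of these 52 were too low to be tested in members alone and entered through the non-dividing cells. A median without those genes is not given. For S phase genes it went from -0.52 to 0.11 and for G2 and mitosis genes from -0.84 to -0.31. Irf7 was at 2.08 in the deeper cells (edgeR adjusted p = 0.189) and Irf8 went from -0.68 to -0.25 (edgeR adjusted p = 0.962). The 11 dendritic cell markers outside MHC class II made up 0.00879 to 0.0163% of UMIs in non-dividing NZB cells, 0.0147 to 0.0370% in NZW and 0.0209 to 0.0245% in NZBWF1. Over 7 macrophage markers tested in both settings the median interaction went from 0.78 to 0.72, with 4 and then 7 above 0. The part of such cells in these differences was not tested. The count of 164 was 20 with DESeq2, 63 without NZB mouse 2, 97 without NZW mouse 1 and 92 without NZW mouse 2.

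**Figure D5:**
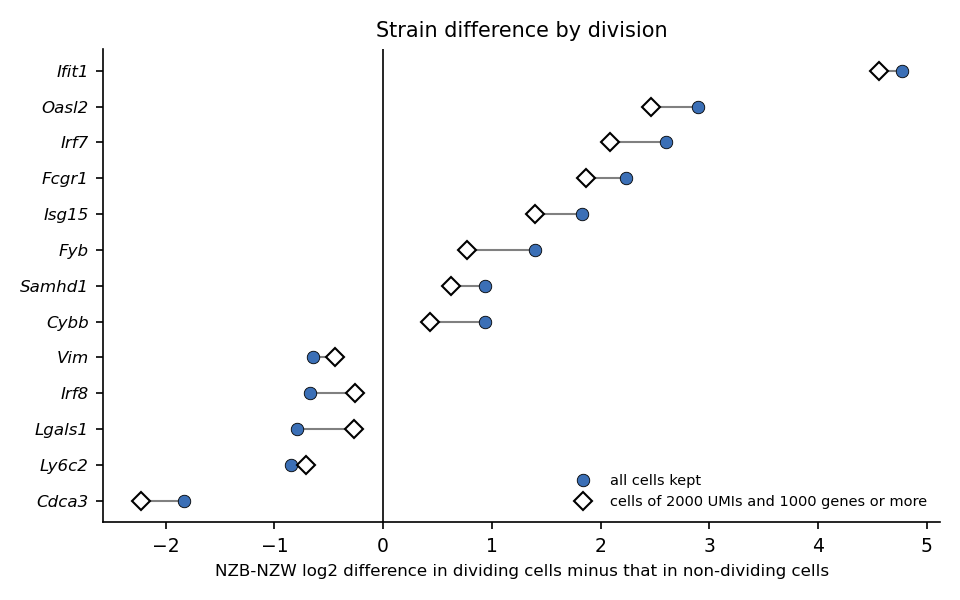
For 13 genes, the NZB minus NZW log2 difference in dividing cells minus that in non-dividing cells, in all cells kept and in cells of at least 2000 UMIs and 1000 genes. Irf7 is at 2.6 and 2.08, and Irf8 at -0.68 and -0.25.

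Promoters of 2 of these interferon-stimulated genes are printed, with capitals for each core of the interferon-stimulated response element (a pair of GAAA words with any 2 bases between them) or its reverse complement. The core was present in 42.4% of 66 RefSeq promoters of the list (51 of 64 genes matched) and in 3.44% of all 32851. The stretches are the 150 bases before the start in GRCm38.p6, on the strand of the gene.
Isg15, chr4:156200819-156200968, minus strand: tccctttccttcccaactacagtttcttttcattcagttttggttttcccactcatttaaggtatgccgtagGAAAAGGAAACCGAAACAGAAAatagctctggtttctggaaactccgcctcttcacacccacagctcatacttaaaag
Ifit1, chr19:34640739-34640888, plus strand: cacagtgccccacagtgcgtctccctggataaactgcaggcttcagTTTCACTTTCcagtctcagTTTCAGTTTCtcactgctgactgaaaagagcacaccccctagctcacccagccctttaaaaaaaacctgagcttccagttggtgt
Isg15, a ubiquitin-like protein, stood at 34.3, 17.7 and 7.17 CPM in NZB, 4.02, 14.3 and 11.05 CPM in NZW and 4.87, 13.3 and 21.9 CPM in NZBWF1 members, and these groups overlapped (NZB against NZW edgeR adjusted p = 0.328). In non-dividing cells it stood at 68.6, 67.4 and 30.7 CPM in NZB and 98.6, 107 and 123 CPM in NZW, with NZB below NZW.

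Ly6c2 was called in both depth settings. It stood at 321, 346 and 329 CPM in NZB, 1556, 1732 and 1586 CPM in NZW and 1015, 1088 and 1222 CPM in NZBWF1 non-dividing cells. Its interaction was -0.84 ± 0.110 on the log2 scale (edgeR adjusted p = 9.5e-08), a wider gap between the parents in members, and -0.71 in the deeper cells (edgeR adjusted p = 0.0190).

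Against dividing granulocyte-monocyte precursors, 45 of 7957 genes (0.566%) differed in their NZB against NZW difference, 36 with a more positive (0.452%) and 9 with a more negative value in members (0.113%). With only cells of at least 2000 UMIs and 1000 genes, which removed few members or precursors, 45 genes were called, 43 of them shared. Trem3, an activating receptor of myeloid cells, stood at 76.3, 105 and 97.9 CPM in NZB and 16.1, 24.5 and 9.04 CPM in NZW members, and at 155, 208 and 222 CPM in NZB and 161, 119 and 80.5 CPM in NZW precursors (interaction 1.86 ± 0.253, edgeR adjusted p = 2.7e-08). Ear2, lower in NZB members, was higher in NZB precursors, at 42.0, 31.9 and 23.2 CPM in NZB and 4.73, 12.5 and 20.9 CPM in NZW (interaction -2.23 ± 0.321, edgeR adjusted p = 1.3e-07). F13a1, a gene of the rule, overlapped between the parents in members, at 1099, 1106 and 1149 CPM in NZB and 1275, 1143 and 1091 CPM in NZW, and stood apart in precursors, at 239, 259 and 219 CPM in NZB and 439.7, 423 and 499 CPM in NZW. The count of 45 was 14 with DESeq2, 26 without NZB mouse 2, 25 without NZB mouse 3, 15 without NZW mouse 2, 23 without NZW mouse 3 and 71 without NZBWF1 mouse 1. With cells of at most 5% mitochondrial UMIs it was 2, with 5 to 9 precursors left per NZW mouse.

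The hybrid differed from its parents otherwise in members than in non-dividing cells for 18 genes (0.221%), 11 with a more positive (0.135%) and 7 with a more negative value in members (0.086%). Mcm5, a subunit of the replicative helicase, stood at 214, 179 and 148 CPM in NZBWF1 members and 121 to 177 CPM in parental members, and at 14.6, 42.6 and 35.9 CPM against 38.1 to 103 CPM in non-dividing cells (interaction 1.15 ± 0.247, edgeR adjusted p = 0.0194). That call was lost without NZB mouse 2, NZW mouse 3 or NZBWF1 mouse 1, with DESeq2, without the robust option, with cells of at most 5% mitochondrial UMIs, with at least 3 UMIs of Csf1r, Ly86 and Ms4a6c, and in the deeper cells. The other S phase genes leaned the same way. All 30 tested lay above 0 and 2 of them were called, with a median of 0.899 (0.68 in the deeper cells). Of 35 genes of G2 and mitosis, 25 lay above 0 with a median of 0.499 (20 with a median of 0.32 in the deeper cells). The median for all genes was 0.02. Of 10 replication-dependent histone genes tested in both settings, 3 lay above 0 with a median of -0.33 (2 with a median of -0.33 in the deeper cells). S phase genes made up 0.0798 to 0.167% of UMIs in non-dividing NZB cells, 0.0675 to 0.0880% in NZW and 0.0416 to 0.0821% in NZBWF1. In the deeper cells edgeR called 0 genes, while 410 of 6564 had an unadjusted p under 0.05. The count of 18 was 1 with DESeq2, 30, 9 and 37 without NZB mice 1, 2 and 3, 11, 10 and 5 without NZW mice 1, 2 and 3, and 1 without NZBWF1 mouse 1.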

How the data were processed

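Both femurs of each mouse were flushed and their cells captured with the 10x Chromium Single Cell 3′ kit. Per the labels and the study's methods, the authors made the deposited UMI count table with Cell Ranger 3.1.0 and bcl2fastq 2.20 on mm10 and joined the 9 libraries. The annotation release and any scaling of depth at the join are not given in the sources used here. The table holds 31053 genes and 68444 barcodes as whole counts, and 0 columns without a sample. Kept were 39051 barcodes with at least 1000 UMIs, 500 genes and at most 10% mitochondrial UMIs. The study gives 31053 as its number of cells after quality control, which is the number of gene rows here.

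Members and gene lists were chosen with earlier results of these data known. UMIs were summed per mouse and tested with edgeR 4.0.16 (R 4.3.3, TMM, filterByExpr, robust quasi-likelihood, Benjamini-Hochberg). Single values were compared by exact permutation over mice (scipy 1.17.1). Members were set against other cells as log2(CPM + 1) ratios within mice, with no test. Named genes were the called genes of smallest p in each contrast (5 in each direction, 3 for interactions), genes of the lists, the 10 highest and 10 lowest ratios against non-dividing cells, and genes of the rule. Some genes named by this rule are not reported here. Genes named from the ratios against precursors were chosen after their values were seen. Mice were separate animals with 1 library each. Replicate numbers were not taken as pairs, as 1 of 9 same-numbered pairs had a correlation of deviations of gene levels over 0.1. Member depth did follow the number (median UMIs of 4564 to 5279 for number 1, 3386 to 3611 for number 2 and 3974 to 4182 for number 3). In each strain, mouse 2 was also highest and mouse 1 lowest in the share of kept cells and in the dividing share of deeper cells. The dividing share of all cells kept did not follow the number in NZBWF1. Exact permutation took no account of the number. Simulated doublets (58 of 1950 members) stayed in the main analysis. On simulated counts for the NZB against NZW comparison over 7754 genes, 147 of 200 genes changed 2-fold were recovered, and for the interaction with non-dividing cells over 8136 genes 39 of 200 changed 2-fold and 143 of 200 changed 4-fold. Alternatives covered quality limits, the rule, doublets, free RNA, normalisation, DESeq2 1.42.0, filters, a replicate block and each mouse left out. Precision was limited by 76 to 485 members and 410975 to 1748298 summed member UMIs per mouse.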

Additional observations from a re-analysis of the deposited data

Results flagged for a closer look

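Strain differences that themselves differed between cell sets, by edgeR's interaction test, drew attention. The NZB against NZW difference differed between members and non-dividing monocyte-lineage cells in 164 genes, with interactions on the log2 scale of 1.39 for Fyb, 0.94 for Cybb, 0.94 for Samhd1, -0.79 for Lgals1, -0.64 for Vim, -0.84 for Ly6c2, -0.68 for Irf8, 2.6 for Irf7, 4.77 for Ifit1, 2.899 for Oasl2, 1.83 for Isg15, 2.24 for Fcgr1 and -1.83 for Cdca3. With only cells of at least 2000 UMIs and 1000 genes, Ly6c2 alone among all genes tested was called. Ifit1 stood near 0 in members of both parents, so its value rests on few member UMIs and is imprecise. Its call was also lost without NZB mouse 2 (edgeR adjusted p = 0.0516).

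The difference of NZBWF1 from its parents differed between the same sets in 18 genes, with interactions of 0.42 for Lgals1, 0.399 for S100a10, 1.15 for Mcm5, -1.24 for Wfdc17, -0.41 for Ccr2 and -0.55 for Ifitm3. Ccr2 is a gene of the rule, so its interaction is a description and supports nothing. All 6 calls were lost with only cells of at least 2000 UMIs and 1000 genes, and each was lost in 3 to 8 of the alternatives.

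The NZB against NZW difference differed between members and dividing granulocyte-monocyte precursors in 45 genes, with interactions of 0.96 for F13a1, 1.86 for Trem3, 1.07 for Fxyd5, -2.23 for Ear2, -0.51 for Ctsg and -2.05 for Gm28875. F13a1 is a gene of the rule, which chose members and not precursors by it, so its interaction is a description and supports nothing. All 6 calls were lost with cells of at most 5% mitochondrial UMIs, and that of Gm28875 in 5 alternatives.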

How the results depend on the processing

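Of 114 gene results 0 changed direction in the alternatives run, 78 kept their call in each and 36 lost it at least once. With cells of at most 5% mitochondrial UMIs the dividing share was 27.1% in NZW and 27.8% in NZBWF1, the other order than in all cells kept. With DESeq2 the called genes were 442 for NZB against NZW, 184 for NZBWF1 against NZB, 20 and 1 for the interactions of NZB against NZW and of NZBWF1 against its parents with non-dividing cells, and 14 for that with precursors. With no filter beyond 1 UMI they were 64 for NZBWF1 against the parents and 48 for its interaction. That interaction gave 4 genes with cells of at most 5% mitochondrial UMIs, 8 with at least 3 UMIs of Csf1r, Ly86 and Ms4a6c, 8 without the robust option and 0 in edgeR with at least 2000 UMIs and 1000 genes (410 unadjusted), where that of NZB against NZW gave 1. The interaction with precursors gave 2 genes with cells of at most 5% mitochondrial UMIs, where NZW mice had 5 to 9 precursors, and 24 with at least 3 UMIs of Mki67 and Top2a.

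The replicate block, for numbers not taken as pairs, gave 890, 24, 375 and 44 genes for the 4 strain contrasts and 156, 28 and 54 for the 3 interactions. Leaving out each mouse gave 505 to 1062 genes for NZB against NZW, 13 to 54 for NZBWF1 against the parents, 153 to 549 against NZB and 29 to 58 against NZW, and 63 to 213, 1 to 37 and 15 to 71 for the interactions in the order above.

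The strain difference in the share of kept cells (highest minus lowest mean, in percentage points) was 3.12 without cells of globin or immunoglobulin UMIs (exact permutation p = 0.0536), 4.48 in cells of 2000 to 6000 UMIs (exact p = 0.2), 1.02 after thinning (exact p = 0.154), 7.04 with at least 2000 UMIs and 1000 genes (exact p = 0.00714) and 1.90 to 4.14 with each mouse left out. That in the dividing share was 10.996 with at least 2000 UMIs and 1000 genes and 12.0 in cells of 2000 to 6000 UMIs (exact permutation p = 0.518 and 0.582), and 18.2 to 28.2 with each mouse left out. edgeR on cell numbers put NZBWF1 below its parents by log2 differences of -0.65 in the share of kept cells (edgeR p = 0.0392) and -0.497 in the dividing share (edgeR p = 0.00588). The causes were not tested.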
